A study of Mus musculus with 22 samples.

Results

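The genes described here drive DNA replication and mitosis in mouse liver. They are 57 named cell cycle genes, of which 22 act mainly at the G1/S transition and in S phase and 35 in G2 and mitosis (G2/M). Every bead array probe whose platform annotation gives one of these symbols was taken. Of the 57 genes, 55 had a probe (115 probes in all), Ccnb1 and Tacc3 had none, and 47 passed the filter on dim signal through 79 detected probes. These 47 (20 G1/S and 27 G2/M genes) were among the 11975 genes tested across the series. The study measured RNA on 22 Illumina arrays from microdissected liver of female C3H mice and concerned liver tumour formation driven by TCPOBOP, a compound that activates the nuclear receptor CAR without damaging DNA. The DENA plus TCPOBOP group (9 arrays) had received the DNA-damaging carcinogen diethylnitrosamine (DENA) once intraperitoneally at 90 mg/kg and, after a week, TCPOBOP by gavage at 3 mg/kg once a week for 28 weeks. The groups TCPOBOP 42 weeks (7 arrays) and TCPOBOP 28 weeks (3 arrays) had the same weekly dose for that long without DENA. Controls (3 arrays) were age-matched mice given DMSO in corn oil, and carry only an abbreviation in their titles, read here as that group because the protocol names no other untreated one. Per the labels, both regimens gave hepatocellular carcinomas by then, and no label marks a sample as tumour. Arrays within a group are called biological replicates there, yet none is tied to a mouse, so the p-values measure the spread between these samples, which may be partly technical. The control titles give no week, so which treated group the control arrays match in age is not known. Age may therefore differ in a comparison with controls. At 42 against 28 weeks, age and length of treatment cannot be told apart. In DENA plus TCPOBOP against 42 weeks, DENA, length of treatment and any difference in age cannot be told apart either.

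A cell enters the cycle when D-type cyclins and Cdk4 release E2F transcription factors from the retinoblastoma protein. E2F factors then raise the genes that load and fire replication origins and supply deoxynucleotides. Later, cyclin A and cyclin B with Cdk1 drive mitosis, the aurora and polo kinases build the spindle, and the anaphase-promoting complex, activated by Cdc20, ends it. Adult hepatocytes rarely divide, but CAR agonists are known to push mouse hepatocytes into the cycle.

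Of these genes, Mcm6 and Cdc6 act in G1/S, and Cdk1, Cdc20 and Top2a in G2/M. Promoters of the genes differ in their short motifs, and those of these 5, which hold matches, are shown as examples. Each is the stretch of 250 bases before the RefSeq start site (mouse build GRCm38.p6), read 5′ to 3′ along the gene's strand. Capitals mark matches on either strand to an E2F site (TTTCCCGC, TTTGGCGC, TTTCGCGC or TTTGCCGC), a CHR element (TTTGAA or TTCGAA) or a CCAAT box (CCAAT, read as ATTGG on the other strand). The Mcm6 stretch is chr1:128359706-128359955 (minus strand), Cdc6 chr11:98907901-98908150 (plus), Cdk1 chr10:69352913-69353162 (minus), Cdc20 chr4:118437344-118437593 (minus) and Top2a chr11:99024190-99024439 (minus).
Mcm6: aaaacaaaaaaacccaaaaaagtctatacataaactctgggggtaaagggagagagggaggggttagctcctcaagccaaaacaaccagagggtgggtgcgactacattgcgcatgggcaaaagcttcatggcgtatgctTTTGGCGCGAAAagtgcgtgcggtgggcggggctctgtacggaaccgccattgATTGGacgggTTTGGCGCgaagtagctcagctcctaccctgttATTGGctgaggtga
Cdc6: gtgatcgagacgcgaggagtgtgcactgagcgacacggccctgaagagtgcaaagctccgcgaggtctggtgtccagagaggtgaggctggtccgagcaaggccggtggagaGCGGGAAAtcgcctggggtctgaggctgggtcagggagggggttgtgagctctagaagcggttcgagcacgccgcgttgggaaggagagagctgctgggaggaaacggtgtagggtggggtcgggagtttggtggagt
Cdk1: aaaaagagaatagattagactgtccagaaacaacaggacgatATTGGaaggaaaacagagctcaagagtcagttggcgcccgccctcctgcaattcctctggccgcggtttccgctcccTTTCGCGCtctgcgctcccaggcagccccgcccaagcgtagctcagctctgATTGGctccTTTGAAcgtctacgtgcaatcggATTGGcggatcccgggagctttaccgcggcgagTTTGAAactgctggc
Cdc20: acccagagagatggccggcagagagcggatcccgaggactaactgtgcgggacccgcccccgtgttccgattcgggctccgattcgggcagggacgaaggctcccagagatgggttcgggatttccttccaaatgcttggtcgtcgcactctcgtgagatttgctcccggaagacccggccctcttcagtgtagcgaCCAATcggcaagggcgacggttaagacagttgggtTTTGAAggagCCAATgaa
Top2a: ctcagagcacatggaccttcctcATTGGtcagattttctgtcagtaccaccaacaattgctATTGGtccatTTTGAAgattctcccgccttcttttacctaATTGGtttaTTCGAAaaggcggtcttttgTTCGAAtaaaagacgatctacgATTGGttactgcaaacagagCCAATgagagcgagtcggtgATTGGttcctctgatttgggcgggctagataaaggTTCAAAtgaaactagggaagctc

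RefSeq windows (250 bases before to 50 after the start) were at hand for 46 of the 57 genes. E2F letters stood in 6 of 17 G1/S windows (Cdk2, Cdc6, Mcm3, Mcm5, Mcm6 and Mcm7) and in 1 of 29 G2/M windows (Cdk1), against 2.61% of the windows of 27025 genes. CHR letters stood in 3 of 17 G1/S windows and 20 of 29 G2/M windows, against 21.7% of all. CCAAT stood in 10 of 17 and 23 of 29 windows, against 41.1%. The windows of E2f1 and Cdk4, G1/S genes also described below, held no match to any of these motifs, and that of Rrm2 no E2F letters. Matches of different motifs overlapped 2 times. These counts describe letters only, and no binding was measured.

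Levels below are log2 signals of a gene's brightest detected probe after background correction and normalization, and levels of different genes cannot be compared. A probe counts as detected where its detection p-value, which ranks it against negative control beads, was under 0.05. Between 34.8% and 42.6% of the 45281 probes were detected per array, with the lowest share on TCPOBOP 42 weeks replicate 4. Each change is a log2 fold change with its standard error and limma's adjusted p from the fit over all genes, and a gene is called, or said to have risen or fallen, where that p is under 0.05. All comparisons against controls share the same 3 control arrays. For a gene detected on no control array the text gives a lower limit in fold where one could be set, while medians and plots use the fitted values unless stated. In liver tissue, more cells with a transcript and more transcript per cell cannot be told apart.

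Many replication and mitosis genes were higher in each treated group than in controls, in both phases. In DENA plus TCPOBOP liver 24 of the 47 rose and 1 fell, where 12.2% of all genes tested rose and 14.3% fell. After 42 weeks of TCPOBOP 31 rose and 2 fell, against 15.1% and 17.2% of all genes. After 28 weeks 17 rose and 0 fell, against 3.86% and 2.01% of all genes. The median change of the 47 was 0.93 in DENA plus TCPOBOP, 1.39 at 42 weeks and 0.90 at 28 weeks, while the median over all genes lay between -0.04 and -0.01. With genes undetected in a whole group set at their lower limit, or at 0 where none could be set, the medians were 0.69, 1.18 and 0.74 in that order of groups. Some of the 47 passed the filter through the treated arrays alone, so these counts describe the detected genes. Over all 55 genes with a probe and no filter, 22, 29 and 15 rose in that order, against 7.13%, 8.81% and 2.27% of 19057 genes. The size of a change depends on the background correction: without it the medians were 0.38, 0.59 and 0.45.

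**Figure D1:**
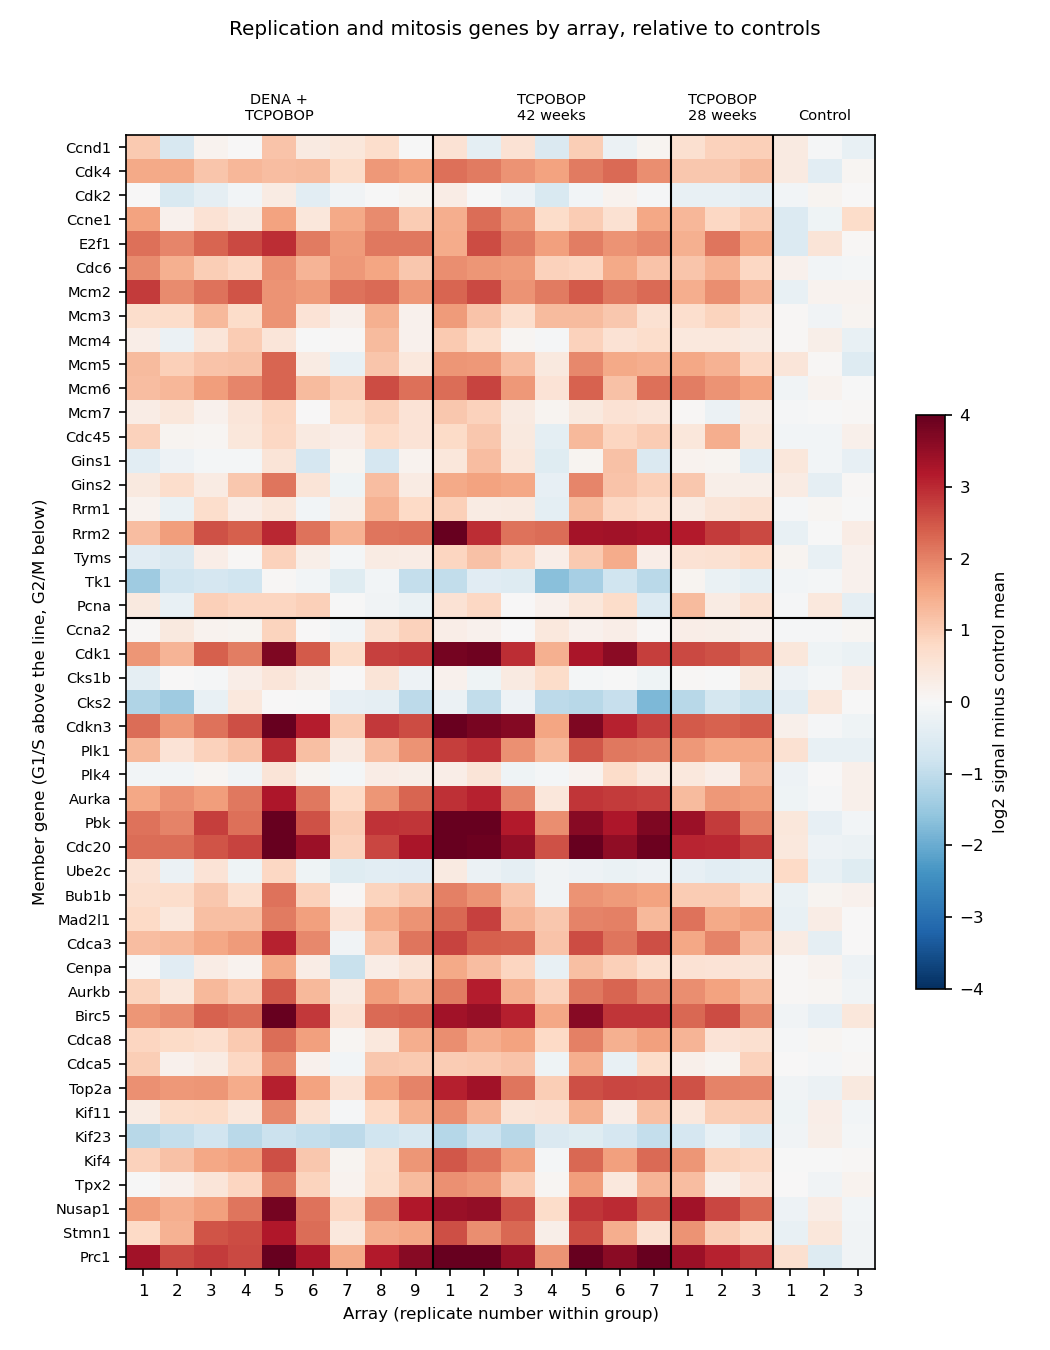
Log2 signal of each of the 47 detected genes minus its control mean, with 1 column per array (DENA plus TCPOBOP, TCPOBOP 42 weeks, TCPOBOP 28 weeks, then Control) and G1/S genes above the horizontal line. Red is above and blue below the control mean, with colours saturating at 4. DENA plus TCPOBOP replicate 7 and TCPOBOP 42 weeks replicate 4 are the palest treated columns, and Kif23, Tk1 and Cks2 are mostly blue.

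By phase, 8 of 20 G1/S genes and 16 of 27 G2/M genes rose in DENA plus TCPOBOP, 12 and 19 at 42 weeks, and 6 and 11 at 28 weeks. The median change of G2/M genes was 1.24 in DENA plus TCPOBOP, 1.79 at 42 weeks and 1.18 at 28 weeks. That of G1/S genes was 0.61, 0.98 and 0.76 in the same order. The difference between the phases was not tested. The share that rose was highest among genes detected on some, but not all, control arrays. Of 20 genes detected on every control array, 7, 10 and 6 rose in the same order of groups. Of 12 detected on some, 10, 10 and 8 rose, and of 15 detected on none, 7, 11 and 3.

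The labels place several groups on one slide, with 1 control array on each slide that holds any. Within slides, and over all 47 detected genes, slide 3 gave a median change of 1.23 and slide 4 one of 0.82 for DENA plus TCPOBOP, slide 2 gave 1.05 for 42 weeks, and slides 2 and 4 gave 0.90 and 0.92 for 28 weeks.

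**Figure D2:**
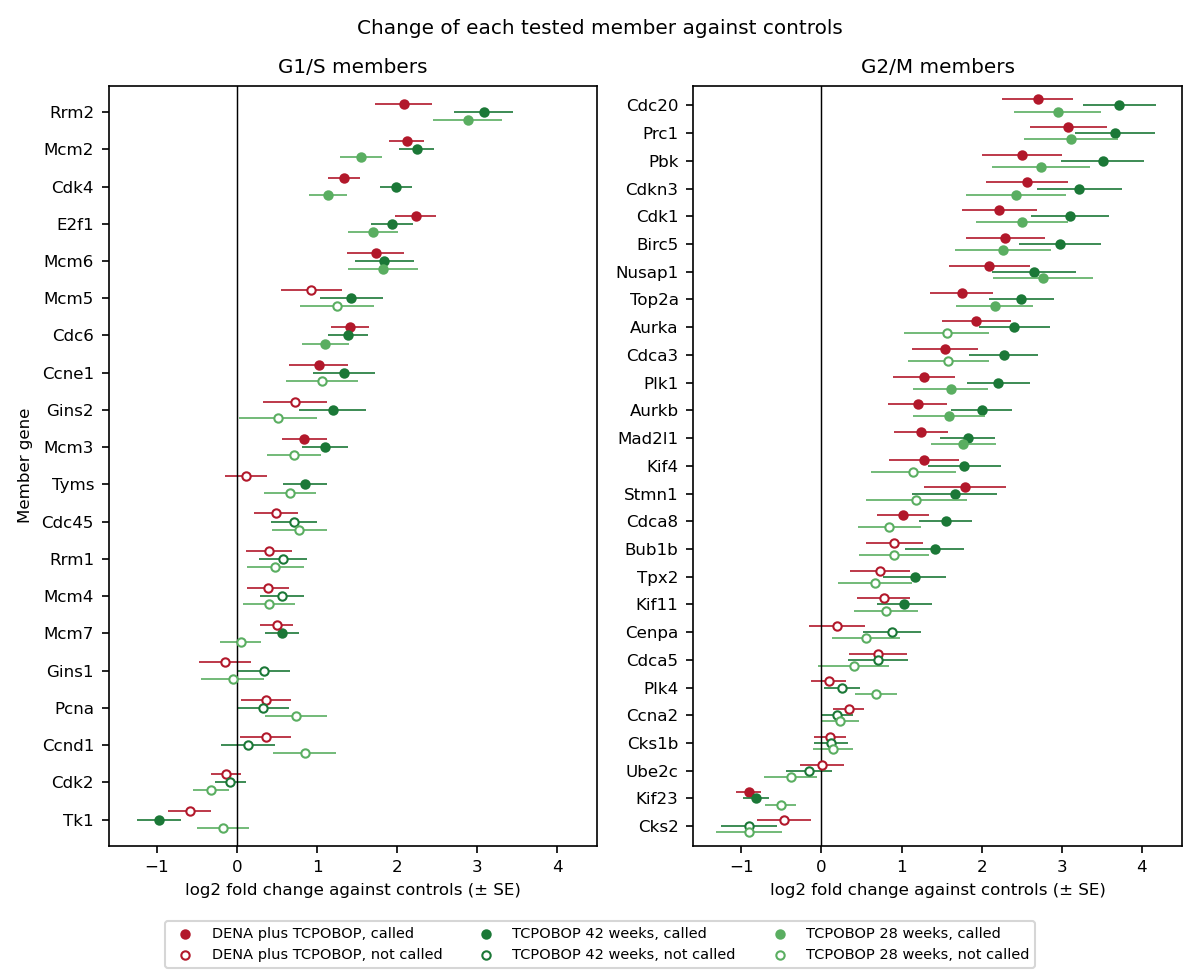
Log2 fold change ± SE against controls of each detected G1/S gene (left) and G2/M gene (right), with DENA plus TCPOBOP in red, TCPOBOP 42 weeks in dark green and TCPOBOP 28 weeks in light green. Filled points are called. Points of genes undetected on every control array, such as Rrm2, are fitted values and not lower limits. Cdc20 and Prc1 head the G2/M genes, and Rrm2 and Mcm2 the G1/S genes.

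Among the G1 regulators, 3 of 5 rose in DENA plus TCPOBOP, 3 at 42 weeks and 2 at 28 weeks. Cdk4, the kinase partner of D cyclins, ran from 8.96 to 9.96 in DENA plus TCPOBOP (median 9.54) and from 9.82 to 10.49 at 42 weeks (median 10.31). It stood at 9.30, 9.30 and 9.49 at 28 weeks, against 8.57, 7.80 and 8.31 in controls. Every treated array lay above every control array. The kinase rose by 1.34 ± 0.19 (adjusted p = 1.74e-05), 1.99 ± 0.20 (8.38e-08) and 1.14 ± 0.24 (0.00368) in the same order of groups. Against controls, its second, dimmer probe was called only at 42 weeks.

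E2f1, the transcription factor that opens S phase, ran from 6.92 to 8.18 in DENA plus TCPOBOP (median 7.34) and from 6.71 to 7.83 at 42 weeks (median 7.15). At 28 weeks its arrays read 6.65, 7.37 and 6.76, against 4.68, 5.73 and 5.26 in controls. All treated arrays were above the controls. The increases were 2.23 ± 0.25 (adjusted p = 5.17e-07), 1.94 ± 0.26 (5.69e-06) and 1.70 ± 0.31 (0.000902). Ccne1, the E cyclin that activates Cdk2, rose by 1.02 ± 0.37 in DENA plus TCPOBOP (adjusted p = 0.0432) and 1.34 ± 0.38 at 42 weeks (0.00949), with treated and control arrays overlapping in both. Its call ended without any 1 of 7 arrays in DENA plus TCPOBOP (adjusted p up to 0.25) and without control replicate 1 or 2 at 42 weeks (up to 0.0794). At 28 weeks its change was 1.07 ± 0.45 (0.201).

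Cyclin D1 was called in no comparison with controls. Ccnd1, the D cyclin and a known β-catenin target, ran from 11.93 to 13.71 in DENA plus TCPOBOP (median 12.93) and from 11.98 to 13.53 at 42 weeks (median 12.66). Its arrays at 28 weeks read 13.22, 13.49 and 13.52, against 12.92, 12.51 and 12.25 in controls. Only the 28-week arrays all lay above the controls. None of the changes passed the test, at 0.36 ± 0.32 (adjusted p = 0.459), 0.14 ± 0.33 (0.784) and 0.85 ± 0.39 (0.257). Fitting the 28-week and control arrays alone, the last gave adjusted p = 0.024. Cdk2, the partner of cyclin E, changed by -0.13 ± 0.18, -0.08 ± 0.19 and -0.33 ± 0.23 by its brightest probe, none called. Its dimmer detected probes changed by 0.27 ± 0.25, 0.47 ± 0.29 and 0.69 ± 0.20 at 42 weeks. Of these only the dimmest was called there (adjusted p = 0.00951 over the probes). It was detected on 2 of 7 arrays at 42 weeks and on 0 of 3 control arrays.

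**Figure D3:**
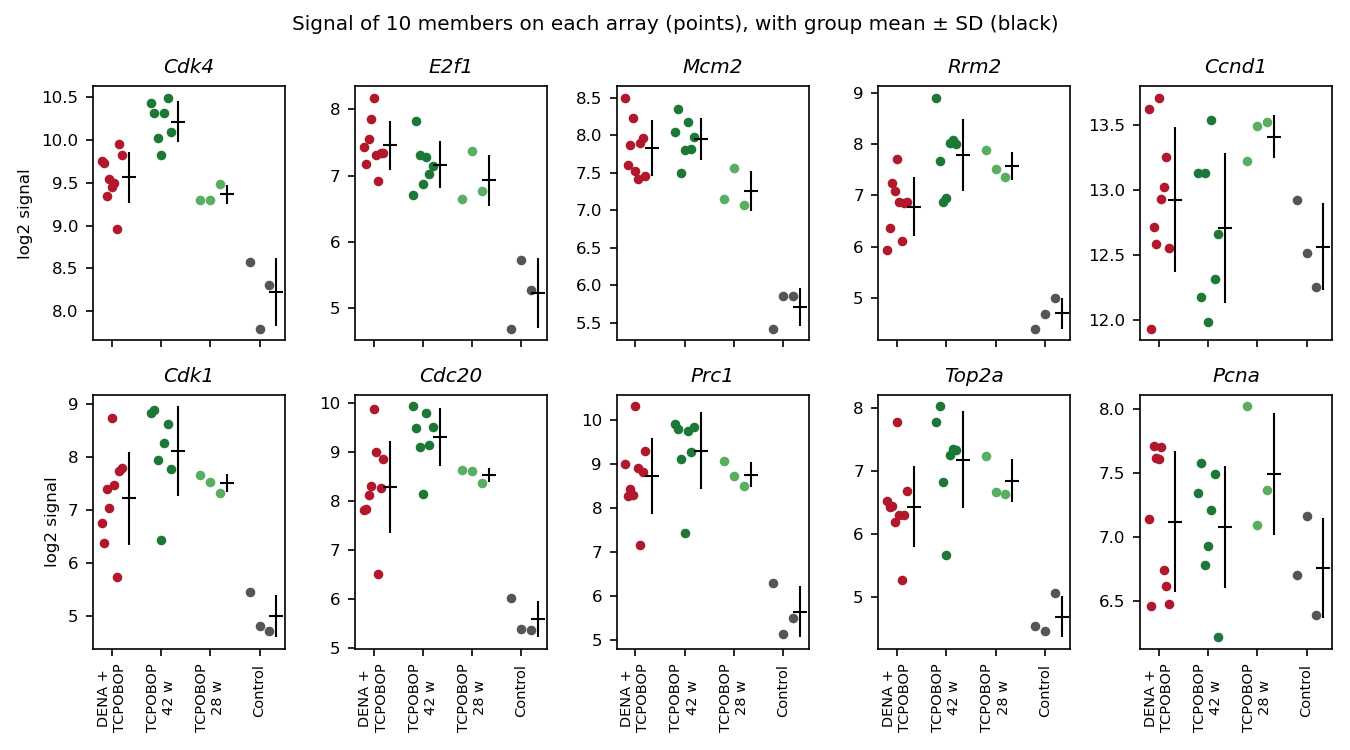
Log2 signal of 10 genes on each array (points), with group mean and SD in black, for DENA plus TCPOBOP, TCPOBOP 42 weeks, TCPOBOP 28 weeks and Control from left to right. Each panel has its own scale. Treated and control arrays are apart for Cdk4, E2f1, Mcm2, Rrm2, Cdk1, Cdc20, Prc1 and Top2a, and overlap for Pcna and, except at 28 weeks, for Ccnd1.

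Of 10 genes that license and fire origins, 4 rose in DENA plus TCPOBOP, 7 at 42 weeks and 3 at 28 weeks. Mcm2, a subunit of the replicative helicase, ran from 7.41 to 8.50 in DENA plus TCPOBOP (median 7.87) and from 7.50 to 8.35 at 42 weeks (median 7.98). It measured 7.15, 7.56 and 7.07 at 28 weeks, against 5.42, 5.86 and 5.85 in controls. No treated array came within the range of the controls. The gene rose by 2.12 ± 0.21 (adjusted p = 9.03e-08), 2.24 ± 0.22 (6.06e-08) and 1.55 ± 0.26 (0.000437).

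Mcm6, another helicase subunit whose promoter holds 3 E2F matches above, ran from 7.74 to 9.33 in DENA plus TCPOBOP (median 8.42) and from 7.27 to 9.42 at 42 weeks (median 8.93). It gave 8.77, 8.54 and 8.36 at 28 weeks, against 6.59, 6.88 and 6.72 in controls. The treated arrays again lay above all controls. Mcm6 rose by 1.73 ± 0.36 (adjusted p = 0.000834), 1.84 ± 0.37 (0.000539) and 1.82 ± 0.44 (0.0117), but leaving out replicate 1 of the 28-week arrays (0.0605) or of the controls (0.0502) ended the call at 28 weeks.

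The other helicase subunits had smaller fitted changes. Mcm3 was at least 1.26-fold higher in DENA plus TCPOBOP (adjusted p = 0.0268) and 1.51-fold at 42 weeks (0.00487). Mcm5 rose at 42 weeks by 1.43 ± 0.39 (adjusted p = 0.00693), with 0.93 ± 0.38 (0.0725) in DENA plus TCPOBOP and 1.25 ± 0.46 (0.127) at 28 weeks. Mcm7 rose at 42 weeks by 0.56 ± 0.21 (0.0472), with 0.50 ± 0.21 (0.0786) and 0.05 ± 0.25 (0.956) in the other groups. Mcm4 changed by 0.39 to 0.57, and Cdc45 and Gins1, which join the helicase when it fires, by 0.49 to 0.78 and -0.15 to 0.33, none called. Cdc6, which loads the helicase, was undetected in controls and at least 2.05-fold higher in DENA plus TCPOBOP (adjusted p = 0.000118), 2.01-fold at 42 weeks (0.000173) and 1.65-fold at 28 weeks (0.0246). Gins2 was at least 1.94-fold higher at 42 weeks (adjusted p = 0.031).

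Among 5 genes of nucleotide supply and the replication clamp, 1 rose in DENA plus TCPOBOP, 2 rose and 1 fell at 42 weeks, and 1 rose at 28 weeks. Rrm2, the regulated subunit of ribonucleotide reductase, was detected on no control array and on every treated array. It ran from 5.93 to 7.72 in DENA plus TCPOBOP (median 6.86) and from 6.86 to 8.90 at 42 weeks (median 8.001). Its 28-week arrays read 7.88, 7.51 and 7.35, against 4.40, 4.69 and 5.01 in controls. The groups did not overlap, and Rrm2 was at least 3.24-fold higher in DENA plus TCPOBOP (adjusted p = 0.000116), 6.48-fold at 42 weeks (9.72e-07) and 5.63-fold at 28 weeks (0.000101). Rrm1, the other subunit, changed by 0.40 ± 0.29, 0.57 ± 0.30 and 0.48 ± 0.36 (adjusted p = 0.346, 0.155 and 0.532). A dimmer Rrm1 probe, detected on every array, rose at 42 weeks by 0.97 ± 0.35 (adjusted p = 0.0392 over the probes). That probe was not called in the other groups.

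Tyms, thymidylate synthase, ran from 7.62 to 9.13 in DENA plus TCPOBOP (median 8.44) and from 8.48 to 9.68 at 42 weeks (median 9.07). It stood at 8.78, 8.81 and 9.01 at 28 weeks, against 8.33, 7.91 and 8.38 in controls. DENA plus TCPOBOP overlapped the controls and the other treated groups did not. It rose at 42 weeks (0.85 ± 0.27, adjusted p = 0.0184), a call that ended without control replicate 2 (0.116), and changed by 0.11 ± 0.26 (0.798) and 0.66 ± 0.32 (0.277) in DENA plus TCPOBOP and at 28 weeks. Tk1, the thymidine salvage kinase, went the other way: its highest 42-week array read 9.54, below the lowest control of 9.89, and it fell (-0.97 ± 0.28, adjusted p = 0.00876).

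Pcna, the sliding clamp of DNA polymerase and a common stain for proliferation, ran from 6.46 to 7.71 in DENA plus TCPOBOP (median 7.14) and from 6.21 to 7.58 at 42 weeks (median 7.21). It measured 8.02, 7.10 and 7.37 at 28 weeks, against 6.70, 7.17 and 6.39 in controls. All 3 treated groups overlapped the controls. Its changes of 0.37 ± 0.31, 0.32 ± 0.33 and 0.74 ± 0.39 did not pass the test (adjusted p = 0.439, 0.486 and 0.325).

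Of 9 mitotic cyclin and kinase genes, 5 rose in DENA plus TCPOBOP, 5 at 42 weeks and 4 at 28 weeks. Cdk1, the kinase that starts mitosis, ran from 5.73 to 8.72 in DENA plus TCPOBOP (median 7.38) and from 6.43 to 8.88 at 42 weeks (median 8.27). The 28-week arrays gave 7.65, 7.53 and 7.32, against 5.46, 4.81 and 4.73 in controls. Its lowest treated array, at 5.73, was above the highest control. Cdk1 rose by 2.22 ± 0.47 (adjusted p = 0.00106), 3.10 ± 0.49 (3.76e-05) and 2.50 ± 0.58 (0.00819), and on the authors' normalized values the call at 28 weeks ended (0.0689).

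Pbk, a mitotic kinase that phosphorylates histones, ran from 6.16 to 9.35 in DENA plus TCPOBOP (median 7.69) and from 7.02 to 9.92 at 42 weeks (median 8.78). It read 8.57, 7.94 and 7.17 at 28 weeks, against 5.60, 4.83 and 5.04 in controls. Groups did not overlap. The increases were 2.51 ± 0.50 (adjusted p = 0.000581), 3.51 ± 0.52 (1.71e-05) and 2.74 ± 0.61 (0.0065), with the 28-week call lost without TCPOBOP 28 weeks replicate 1 (0.0514) and on the authors' normalized values (0.0701).

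Cdkn3, a phosphatase that acts on cyclin-dependent kinases, ran from 6.15 to 9.88 in DENA plus TCPOBOP (median 7.66) and from 6.66 to 9.04 at 42 weeks (median 8.75). It stood at 7.55, 7.45 and 7.56 at 28 weeks, against 5.30, 5.04 and 4.93 in controls. Here too the treated arrays were all above the controls. Cdkn3 rose by 2.57 ± 0.51 (adjusted p = 0.000597), 3.22 ± 0.53 (6.66e-05) and 2.43 ± 0.63 (0.0198), but at 28 weeks the call ended without any 1 of 5 of the 6 arrays (0.0577 to 0.0703) and on the authors' normalized values (0.168).

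The polo kinase Plk1 rose by 1.28 ± 0.38 (adjusted p = 0.016), 2.21 ± 0.40 (0.000176) and 1.61 ± 0.47 (0.0427). Its 28-week call ended without any 1 of 5 arrays (up to 0.164), and its DENA plus TCPOBOP call without control replicate 2 or 3 (up to 0.0937). Aurora A kinase (Aurka), undetected in controls, was at least 3.12-fold higher in DENA plus TCPOBOP (0.0016) and 4.33-fold at 42 weeks (0.000225), and at 28 weeks at least 2.41-fold higher without passing the test (0.086). Ccna2, cyclin A2, ran from 4.37 to 5.41 in DENA plus TCPOBOP (median 4.60), where 3 of 9 arrays detected it, and from 4.51 to 4.90 at 42 weeks (median 4.65). It read 4.74, 4.72 and 4.65 at 28 weeks, against 4.44, 4.42 and 4.56 in controls, and was detected on none of the arrays outside DENA plus TCPOBOP. It was not called (adjusted p = 0.214, 0.483 and 0.692). Cks1b and Cks2, small subunits of cyclin-dependent kinases, and Plk4, which copies centrioles, were not called either, with Cks2 at -0.47, -0.90 and -0.90.

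Among 5 genes of the spindle checkpoint and the anaphase-promoting complex, 3 rose in DENA plus TCPOBOP, 4 at 42 weeks and 2 at 28 weeks. Cdc20, which activates that complex, ran from 6.51 to 9.88 in DENA plus TCPOBOP (median 8.27) and from 8.16 to 9.94 at 42 weeks (median 9.50). Its 28-week arrays read 8.63, 8.62 and 8.37, against 6.02, 5.39 and 5.37 in controls. The lowest treated array was above the highest control, and all 22 arrays detected the gene. Cdc20 rose by 2.70 ± 0.44 (adjusted p = 7.2e-05), 3.71 ± 0.46 (1.48e-06) and 2.95 ± 0.54 (0.000915).

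Mad2l1, a checkpoint protein that holds Cdc20 back, rose by 1.24 ± 0.33 (adjusted p = 0.00731), 1.82 ± 0.35 (0.000294) and 1.77 ± 0.41 (0.00831), with the first call lost without control replicate 1 and the last without TCPOBOP 28 weeks replicate 1. Cdca3, a trigger of mitotic entry, rose by 1.55 ± 0.41 (0.00732) in DENA plus TCPOBOP, a call that ended without control replicate 2 (0.0553), and by 2.27 ± 0.43 (0.000282) at 42 weeks. The checkpoint kinase Bub1b was at least 2.26-fold higher at 42 weeks (0.00514). Ube2c, the ubiquitin-conjugating enzyme of the complex, was detected on 3 of 9, 1 of 7 and 0 of 3 treated arrays and on 1 of 3 control arrays, with no call.

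Of 6 genes of centromeres, the passenger complex and chromosome structure, 4 rose in DENA plus TCPOBOP, 4 at 42 weeks and 3 at 28 weeks. Birc5 (survivin), a passenger complex subunit, ran from 5.90 to 9.77 in DENA plus TCPOBOP (median 7.60) and from 6.89 to 8.97 at 42 weeks (median 8.43). It gave 7.64, 7.93 and 7.23 at 28 weeks, against 5.20, 5.01 and 5.79 in controls. DENA plus TCPOBOP replicate 7, its lowest treated array at 5.90, was just above the highest control. Birc5 rose by 2.30 ± 0.49 (adjusted p = 0.00113), 2.98 ± 0.51 (9.48e-05) and 2.26 ± 0.60 (0.0231), the last lost without any 1 of 4 arrays (0.0751 to 0.1) and on the authors' normalized values (0.142).

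Top2a, the topoisomerase that untangles chromosomes, ran from 5.27 to 7.79 in DENA plus TCPOBOP (median 6.43) and from 5.67 to 8.03 at 42 weeks (median 7.34). It stood at 7.25, 6.67 and 6.63 at 28 weeks, against 4.53, 4.46 and 5.07 in controls. Groups were apart in each comparison. Top2a rose by 1.75 ± 0.39 (adjusted p = 0.00179), 2.50 ± 0.41 (5.81e-05) and 2.17 ± 0.48 (0.00622). Aurora B kinase (Aurkb), the enzyme of the passenger complex, was undetected in controls and at least 1.85-fold higher in DENA plus TCPOBOP (0.0176), 3.22-fold at 42 weeks (0.000307) and 2.41-fold at 28 weeks (0.0353). In DENA plus TCPOBOP the Aurkb call ended without any 1 control array (adjusted p up to 0.0768). At 28 weeks it ended without any 1 of the 6 arrays compared (up to 0.139) and on the authors' normalized values. Cdca8, another subunit, was at least 1.61-fold higher in DENA plus TCPOBOP (0.0219) and 2.32-fold at 42 weeks (0.00107). Cenpa, the centromere histone, and Cdca5, which guards cohesion, were not called.

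Of 7 genes of spindle motors, microtubule binders and cytokinesis, 4 rose and 1 fell in DENA plus TCPOBOP, 6 rose and 1 fell at 42 weeks, and 2 rose at 28 weeks. Prc1, which bundles the midzone microtubules, ran from 7.16 to 10.32 in DENA plus TCPOBOP (median 8.84) and from 7.45 to 9.93 at 42 weeks (median 9.76). It read 9.07, 8.74 and 8.50 at 28 weeks, against 6.30, 5.15 and 5.51 in controls. No treated array reached the control range. Prc1 rose by 3.08 ± 0.48 (adjusted p = 4.41e-05), 3.66 ± 0.50 (6.49e-06) and 3.11 ± 0.59 (0.00131).

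Nusap1, a spindle microtubule binder, ran from 5.68 to 8.70 in DENA plus TCPOBOP (median 6.82) and from 5.59 to 8.37 at 42 weeks (median 7.71). Its 28-week arrays gave 8.22, 7.52 and 7.12, against 4.67, 5.14 and 4.76 in controls. Treated and control arrays did not overlap. Nusap1 rose by 2.10 ± 0.51 (adjusted p = 0.00337), 2.65 ± 0.53 (0.000469) and 2.76 ± 0.62 (0.00699), the last lost without TCPOBOP 28 weeks replicate 1 (0.0506). The chromokinesin Kif4 was at least 1.83-fold higher in DENA plus TCPOBOP (0.0316) and 2.60-fold at 42 weeks (0.00379). Stathmin (Stmn1), which destabilises microtubules, rose by 1.80 ± 0.51 (0.0114) and 1.66 ± 0.53 (0.0194) in the same groups. The spindle motor Kif11 and the spindle assembly factor Tpx2 were at least 1.46-fold (0.0236) and 1.63-fold (0.0252) higher at 42 weeks. Kif23, a cytokinesis motor, fell by its brightest probe (-0.91 ± 0.16, adjusted p = 0.000151, and -0.82 ± 0.16, 0.000518), a result that its other probes did not share.

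The calls differed in how far they depended on single arrays and settings. Under every other processing tried and with any 1 array left out, 15 of 24 increases remained in DENA plus TCPOBOP, 23 of 31 at 42 weeks and 7 of 17 at 28 weeks (Cdc20, Cdk4, E2f1, Mcm2, Prc1, Rrm2 and Top2a). Without TCPOBOP 28 weeks replicate 1, 8 genes rose at 28 weeks in place of 17. Several calls not yet qualified ended when 1 control array was left out. In DENA plus TCPOBOP these were Mcm3, Cdca8 and Kif4, each without any 1 of the 3 controls (adjusted p up to 0.114, 0.077 and 0.0946), and Stmn1 without control replicate 1 or 3 (0.0645). At 42 weeks they were Tpx2 and Mcm7 without any 1 control (0.0982 and 0.126), Kif11 and Stmn1 without control replicate 1 or 3 (0.0885 and 0.0803), Gins2 without control replicate 2 or 3 (0.15) and Mcm5 without control replicate 3 (0.0645). Mcm7 and Gins2 also depended on 42-week arrays (replicates 1, 2, 6 and 7 for Mcm7, replicates 2 and 5 for Gins2). At 28 weeks Cdc6 lost its call without 28-week replicate 1 or 2 or control replicate 2 or 3 (0.127).

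Above every control array were 20 genes in DENA plus TCPOBOP, 24 at 42 weeks and 37 at 28 weeks, against 9.82%, 12.6% and 15.8% of all genes, where small groups separate more easily.

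Of the 10 genes not tested, Ccnb1 (cyclin B1) and Tacc3 (a spindle protein) had no probe. The other 8 had probes that failed the filter: Ccnb2 (cyclin B2), Ccne2 (an E cyclin), Cenpe (a kinetochore motor), Chek1 (the replication checkpoint kinase), Bub1 (a spindle checkpoint kinase), Kif20a and Racgap1 (cytokinesis) and Nek2 (a centrosome kinase). Of these 8, Ccne2 was detected on 1 DENA plus TCPOBOP array and 1 array at 42 weeks, and the others on 0 of 22 arrays. Failure of a probe and lack of its transcript cannot be told apart.

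Few of these genes passed the test between treated groups. At 42 against 28 weeks 2 of 47 rose and 0 fell, where 6.66% and 7.67% of all genes did, and the median change was 0.30. Cdk4 was higher at 42 weeks on every array (7 arrays from 9.82, against 9.30 to 9.49 at 28 weeks) and rose by 0.85 ± 0.20 (adjusted p = 0.00653), a call lost with median scaling (0.0843). Mcm2 rose by 0.69 ± 0.22 (0.0385) with overlapping groups, and lost its call without any 1 of 6 arrays (up to 0.18) and under 3 other settings. In DENA plus TCPOBOP against 28 weeks 0 rose and 0 fell, where 6.06% and 6.87% of all genes did by limma's adjusted p, with a median change of -0.03. At an unadjusted p under 0.05 they were 3 and 4. In DENA plus TCPOBOP against 42 weeks 0 rose and 1 fell, where 0.894% and 0.818% of all genes did. The gene that fell was Cdk4 (-0.65 ± 0.15, adjusted p = 0.0269), with values that overlapped. Its call ended without any 1 of 4 arrays (up to 0.0595), with median scaling, and with slide as a fixed block (0.465), and these groups share only slide 1. The median change against 42 weeks was -0.43, and 10 of 47 changes were above 0. At an unadjusted p under 0.05, 0 were higher and 13 lower against 42 weeks, where 2283 of 11975 genes passed in either direction.

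Arrays of one group differed widely. On each DENA plus TCPOBOP array 26 to 44 of the 47 genes exceeded their highest control, on each 42-week array 26 to 41 and on each 28-week array 37 to 40, whereas 29.3% to 36.5% of all genes did so. DENA plus TCPOBOP replicate 5 stood highest, with 44 genes above the controls, a median difference of 1.93 from the control mean, and the group's top value for 33 genes. DENA plus TCPOBOP replicate 7 stood lowest in its group for 26 genes, with a median difference of 0.24. In the 42-week group replicate 4 was lowest for 30 genes (median difference 0.45), and replicate 1 had the largest median difference, 1.84. The 28-week arrays lay closer together, at 0.83 to 1.22.

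Both phases took part in this spread. On DENA plus TCPOBOP replicate 5 the median difference was 1.19 for G1/S and 2.49 for G2/M genes, and on replicate 7 it was 0.26 and 0.15. On 42-week replicate 1 the values were 1.28 and 2.30, and on replicate 4 they were 0.23 and 0.73. The G2/M median was the higher one on every treated array except DENA plus TCPOBOP replicates 7 and 8. Replicate 4 at 42 weeks also had the lowest share of detected probes (34.8%), whose part in its low values was not tested. With that array left out 34 genes rose at 42 weeks, and without replicate 5 or replicate 7 of DENA plus TCPOBOP 23 and 26 rose there.

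**Figure D4:**
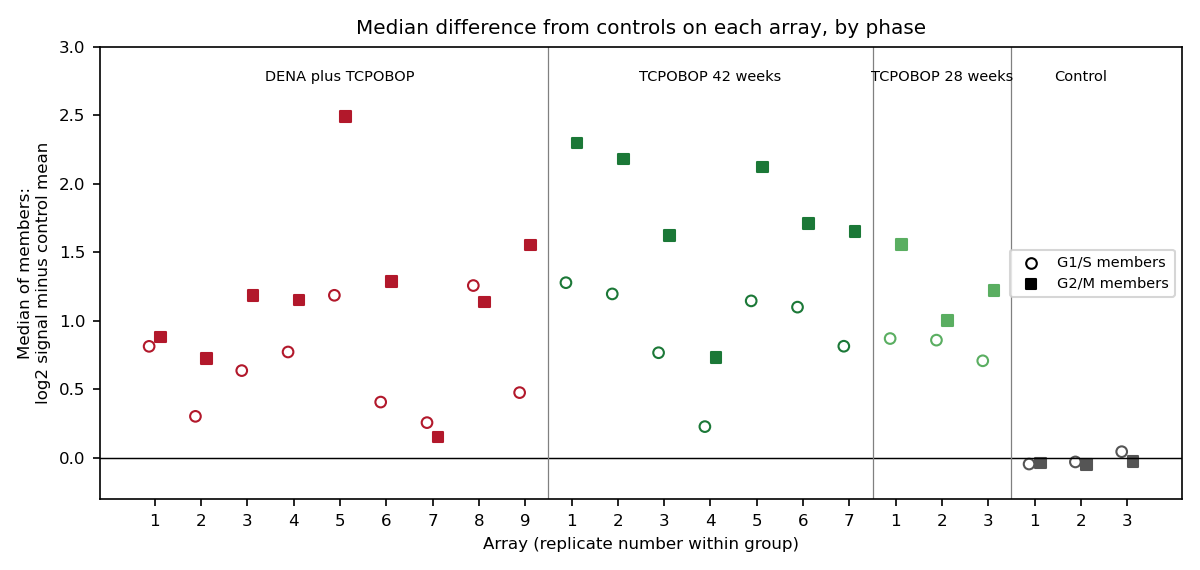
Median over G1/S genes (open circles) and G2/M genes (filled squares) of the log2 signal minus the control mean on each array, by group. DENA plus TCPOBOP replicate 5 has the highest G2/M median (2.49) and replicate 7 the lowest among treated arrays (0.15), and control arrays lie near 0.

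Several detected probes were at hand for 21 genes. At 42 weeks all probes of a gene changed in the same direction for 17 of 21 genes, in DENA plus TCPOBOP for 17 and at 28 weeks for 16. The 4 probes of Cdc20 changed by 1.22 to 3.71 at 42 weeks, each called. In DENA plus TCPOBOP and at 28 weeks 3 of the 4 were called. The dimmer detected probes of Top2a, Kif4 and Gins2 were called in no comparison with controls. The other detected probes of Mcm6 were called in DENA plus TCPOBOP and at 42 weeks. At 28 weeks they were not (adjusted p = 0.0728 and 0.0549 over the probes). Kif23 was the one gene called both ways. Its brightest probe, designed on the cDNA clone AK076271, read 10.05 ± 0.16 in DENA plus TCPOBOP, 10.14 ± 0.25 at 42 weeks and 10.45 ± 0.20 at 28 weeks, against 10.96 ± 0.19 in controls (SD), and fell. The other Kif23 probes, both on the transcript NM_024245, rose at 42 weeks by 1.50 ± 0.42 and 1.23 ± 0.32 (adjusted p = 0.00807 and 0.00475 over the probes). With the mean of its probes the change of Kif23 was 0.64 at 42 weeks and 0.37 in DENA plus TCPOBOP, not called.

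The second Cdk1 probe did not follow the first. It changed by 0.03 ± 0.23 in DENA plus TCPOBOP, -0.42 ± 0.24 at 42 weeks and -0.01 ± 0.28 at 28 weeks, and was detected on 6 of 9, 2 of 7, 2 of 3 and 1 of 3 arrays, controls last. The second Cdk4 probe, detected on every array, changed by 0.22 ± 0.22 in DENA plus TCPOBOP and 0.20 ± 0.27 at 28 weeks. Neither was called (adjusted p = 0.545 and 0.793 over the probes), and at 42 weeks that probe rose by 0.95 ± 0.23 (0.00293). None of the 3 Ccnd1 probes was called in any comparison with controls. The weaker Tk1 probes changed by -0.57 ± 0.36 and -0.29 ± 0.20 at 42 weeks, not called, and with the mean of its probes the Tk1 call ended (adjusted p = 0.0865).

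**Figure D5:**
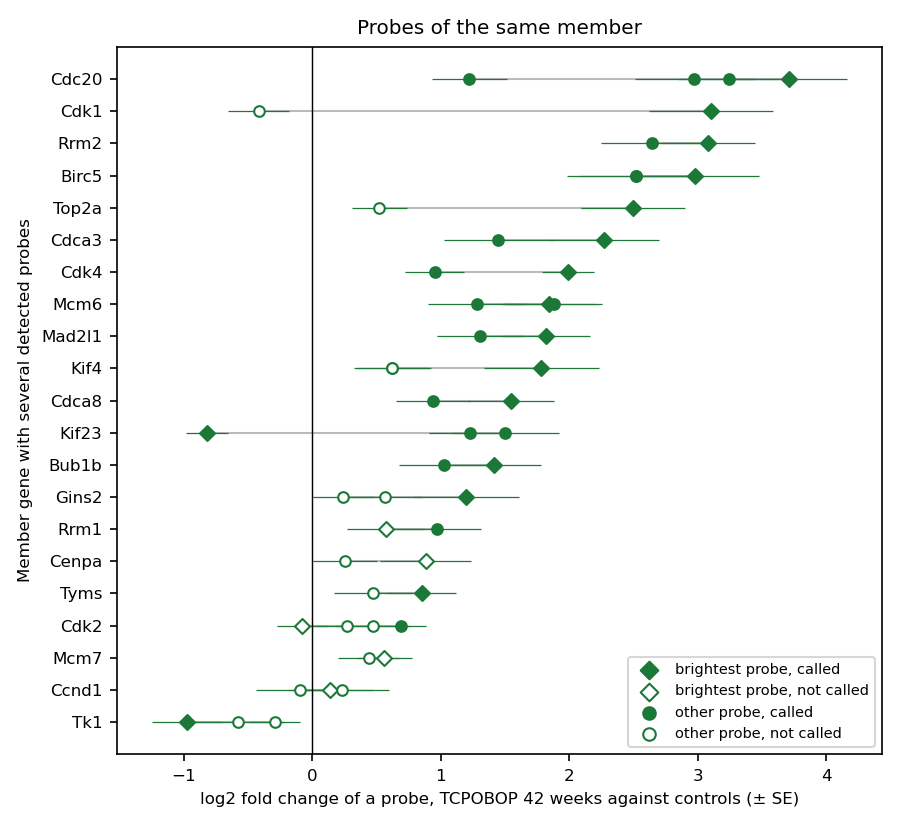
Log2 fold change ± SE of every detected probe at TCPOBOP 42 weeks against controls, for the 21 genes with several. Diamonds mark the brightest probe, circles the others, and filled symbols are called over all detected probes. Kif23 has its brightest probe on the left of 0 and the others on the right, and Cdk1 has 1 probe on either side.

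Other genes of the same pathway were listed by function. For these lists the shares of all genes tested were 12.2% risen and 14.3% fallen in DENA plus TCPOBOP. They were 15.1% and 17.2% at 42 weeks, and 3.86% and 2.01% at 28 weeks. The median change of the further mitosis genes was 0.50 in DENA plus TCPOBOP, 0.69 at 42 weeks and 0.44 at 28 weeks, and that of the further replication genes -0.03, 0.08 and 0.13. Of 37 further replication genes 29 were tested: 5 rose and 7 fell in DENA plus TCPOBOP, 4 and 5 at 42 weeks, and 2 and 0 at 28 weeks. At 42 weeks the counts of this list lay close to the shares of all genes. Uhrf1, which keeps DNA methylation through replication, rose by 2.69 ± 0.35, 2.60 ± 0.37 and 2.38 ± 0.43 (adjusted p = 4.49e-06, 1.02e-05 and 0.000909). Dbf4, the activator of the origin-firing kinase Cdc7, rose by 2.01 ± 0.31, 2.53 ± 0.32 and 1.46 ± 0.38 (3.89e-05, 2.53e-06 and 0.021). Mcm10, an initiation factor, went the other way through its only detected probe, with 8.53 ± 0.76 in DENA plus TCPOBOP, 8.67 ± 0.74 at 42 weeks and 11.02 ± 0.16 at 28 weeks, against 11.89 ± 0.08 in controls. It fell by 3.37 ± 0.41 and 3.22 ± 0.42 in DENA plus TCPOBOP and at 42 weeks (1.33e-06 and 3.67e-06).

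Of 42 further mitosis genes 32 were tested: 9 rose and 1 fell in DENA plus TCPOBOP, 15 and 1 at 42 weeks, and 4 and 0 at 28 weeks. The microtubule depolymerase Kif2c, undetected in controls, was at least 2.13-fold, 4.19-fold and 2.43-fold higher in that order (adjusted p = 0.00364, 4.9e-05 and 0.0249). Ncaph, a condensin subunit, rose by 1.69 ± 0.35, 2.31 ± 0.36 and 1.55 ± 0.43 (0.000877, 3.91e-05 and 0.031). Mki67, the proliferation marker, had no detected probe.

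Among 18 tested regulators of the cycle (25 listed), 4 rose and 2 fell in DENA plus TCPOBOP, 4 and 3 at 42 weeks, and 2 and 0 at 28 weeks. The E2F activator E2f2 rose by 2.95 ± 0.37, 3.90 ± 0.38 and 3.27 ± 0.45 (adjusted p = 2.09e-06, 4.71e-08 and 3.11e-05), and its relative E2f3 by 2.06 ± 0.21, 2.36 ± 0.22 and 2.06 ± 0.26 (1.13e-07, 2.21e-08 and 8.62e-06). Foxm1, the activator of G2/M genes, rose by 1.05 ± 0.33 (0.0192) and 1.51 ± 0.34 (0.00142) in DENA plus TCPOBOP and at 42 weeks, and changed by 1.14 ± 0.40 (0.101) at 28 weeks.

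Of 11 tested brakes of the cycle (12 listed), 1 rose and 2 fell in DENA plus TCPOBOP, 2 and 1 at 42 weeks, and 2 and 0 at 28 weeks. Cdkn2b (p15), an inhibitor of Cdk4, averaged 9.08 ± 0.41 in DENA plus TCPOBOP, 9.49 ± 0.34 at 42 weeks and 8.19 ± 0.24 at 28 weeks, against 5.84 ± 0.47 in controls (SD). It rose by 3.24 ± 0.25, 3.65 ± 0.26 and 2.35 ± 0.30 (adjusted p = 9.65e-10, 2.12e-10 and 1.16e-05). Cdkn1a (p21) rose at 42 weeks (1.74 ± 0.58, adjusted p = 0.0237) and changed by 1.49 ± 0.56 in DENA plus TCPOBOP (0.0519), and Cdkn2c (p18) rose at 28 weeks (1.09 ± 0.28, 0.0169). Cdkn1c (p57) fell in DENA plus TCPOBOP and at 42 weeks, by 1.54 ± 0.46 (0.0143) and 1.31 ± 0.47 (0.0372).

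Markers of some cell types differed between groups, and their part in the results was not tested. All 7 hepatocyte markers were tested, 0 rose, and Tat and Alb fell in DENA plus TCPOBOP and at 42 weeks. Their summed linear signal was 121409 to 158943 in DENA plus TCPOBOP, 138582 to 162350 at 42 weeks and 143479 to 164492 at 28 weeks, against 148709 to 179129 in controls. Of 6 stellate cell markers 5 fell in DENA plus TCPOBOP and 4 at 42 weeks, and of 4 endothelial markers 3 fell in both, while 1 stellate cell marker rose in both. At 28 weeks 0 hepatocyte, 0 stellate cell and 0 endothelial markers were called against controls. The summed linear signal of the endothelial markers was 775 to 4168 in DENA plus TCPOBOP, 472 to 2048 at 42 weeks and 5616 to 6525 at 28 weeks, against 6711 to 7749 in controls. That of the stellate cell markers was 986 to 7359, 1090 to 8186 and 11872 to 13504 in the same order, against 13375 to 16395 in controls. Of 7 tested macrophage markers (9 listed, without Cd68 and Cd5l), 1 rose and 0 fell in DENA plus TCPOBOP, 1 rose and 1 fell at 42 weeks, and 3 rose at 28 weeks (C1qb, Csf1r and Adgre1). Their sum was 1775 to 4375, 1219 to 5143 and 5004 to 6430 in the treated groups, against 1945 to 2438 in controls. Of 9 T and NK cell markers 4 were tested and 0 called, with Cd4, Cd8a, Lck, Gzma and Gzmb not tested, and their sums were 103 to 192, 104 to 204 and 175 to 215, against 155 to 179 in controls. Of the B and plasma cell markers 2 were tested, and Mzb1 fell in DENA plus TCPOBOP and at 42 weeks. Their sums were 52.0 to 80.3, 49.7 to 116 and 77.9 to 120, against 79.3 to 134 in controls. Of 5 neutrophil markers 3 were tested: 0 were called in DENA plus TCPOBOP, 1 rose and 1 fell at 42 weeks, and 1 rose at 28 weeks, with sums of 394 to 618, 235 to 2191 and 702 to 1465, against 121 to 472 in controls. Of 5 erythroid markers 4 were tested, and 2, 3 and 2 fell in the same order of groups, with sums of 3167 to 18227, 2030 to 13156 and 6696 to 12274, against 9487 to 20721 in controls. Of 5 cholangiocyte markers 2 were tested and 0 called, without Krt19, Epcam and Spp1, and their sums were 94.5 to 953, 157 to 550 and 220 to 332, against 446 to 802 in controls.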

How the data were processed

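RNA was measured on 22 Illumina mouse bead arrays, 9 of DENA plus TCPOBOP, 7 of TCPOBOP 42 weeks, 3 of TCPOBOP 28 weeks and 3 of Control, on 4 slides. The authors deposited non-normalized probe intensity with a detection p-value per probe, and a normalized intensity table in which every array has the same lowest and highest value. The submitters' processing notes name BeadStudio 3.0.19.0. Here the non-normalized intensity was background-corrected with limma's normexp method, using the deposited detection p-values in place of control beads (offset 16), then log2-transformed and quantile-normalized. A probe was kept where 3 or more arrays detected it with p under 0.05 (22622 probes), and the brightest kept probe stood for a gene. Platform annotation gave 34885 probes 1 symbol, 18 several and 10378 none. The 4 groups were fitted together with lmFit and eBayes (limma 3.58.1, R 4.3.3), with Benjamini-Hochberg adjustment over 11975 genes and a threshold of 0.05. The fit was tested on simulated data. Tables and figures used Python 3.11.15, pandas 2.3.3, numpy 2.4.6 and matplotlib 3.10.9.

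The members and lists were chosen with earlier results of these data known. Values by array are given for a listed set of members whatever their result, and for the 3 members per phase with the largest called rise and no overlap in each comparison against controls. The other members are named with their test. Of the other pathway lists, up to 4 called genes with the largest change per list and comparison are named. No pair of arrays was a copy (highest correlation 0.989). For a gene undetected in a whole group, the lower limit sets the other group's mean against the higher of each array's lowest signal among detected probes and the probe's own. The number of arrays limits the precision. Alternatives were the authors' normalized values, no background correction, other scalings, no filter, the mean of probes, slide or replicate as a block, only the groups compared, and each array left out.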

Additional observations from a re-analysis of the deposited data

Results flagged for a closer look

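Within each group of 7 or 9 arrays, a value was looked at again when its gap to the next array was large for the group's range (Dixon's test). Of 96 such groups 10 met this. Chance gives about 1 in 20, but the groups share arrays and are not independent, so 1 low array can flag many genes at once. Most belong to TCPOBOP 42 weeks replicate 4, which read lowest of its group for Prc1 (7.45), Cdca3 (7.89), Birc5 (6.89), Nusap1 (5.59), Aurka (5.24), Bub1b (4.70) and Kif4 (4.61). The median difference of the members from the control mean on that array was 0.45. The array also had the lowest share of detected probes, 34.8%, and the part of that in these values was not tested. Bub1b read 7.01 on DENA plus TCPOBOP replicate 5, the array with the highest median difference of all, and Ube2c read 5.22 on TCPOBOP 42 weeks replicate 1, the only array of its group that detected it.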

How the results depend on the processing

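The counts of genes that rose against controls were most dependent on processing at 28 weeks. There, 17 rose in the fit of all groups, 10 on the authors' normalized values, 10 without background correction and 29 when only the 28-week and control arrays were fitted. Leaving out 1 array gave 17 to 26 in DENA plus TCPOBOP, 25 to 34 at 42 weeks and 8 to 14 at 28 weeks, against controls. At 42 against 28 weeks the count was 0 with median scaling and 1 to 3 with 1 array left out. Leaving out 1 array gave 0 to 0 increases in DENA plus TCPOBOP against 28 weeks and against 42 weeks. The change of Ccnd1 at 42 weeks was -0.0151 with cyclic loess and ran from -0.0125 (without control replicate 3) to 0.321 with 1 array left out. That of Tyms in DENA plus TCPOBOP ran from -0.0335 (without control replicate 2) to 0.200 with 1 array left out. The cause of these changes was not tested.

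With the replicate number as a block 23 genes rose in DENA plus TCPOBOP, 30 at 42 weeks and 17 at 28 weeks, 1 gene rose at 42 against 28 weeks, and the change of Tyms in DENA plus TCPOBOP was -0.0415. Deviations of samples with the same number had correlations of -0.145 to 0.136 over 22 pairs, with 3 above 0.1. These low values show no sign of a pairing. They cannot decide whether the numbers pair the samples, because some groups have only 3 arrays.

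Over all genes, 1719 were called at 28 weeks when only those arrays were fitted, against 703 in the fit of all groups. With median scaling the median change of all genes was -0.13 for DENA plus TCPOBOP against 28 weeks and -0.10 for 42 against 28 weeks, against -0.000264 and 0.00586 with quantile normalization. It left 245 higher of 1100 called in the first (726 of 1549 with quantile normalization) and 305 of 1080 in the second (797 of 1715). At 28 weeks against controls it left 409 higher of 519 called, against 462 of 703. For DENA plus TCPOBOP against 42 weeks it left 2 higher of 19 called, against 107 of 205. In that comparison limma called 127 with slide as a random block, 84 when only those arrays were fitted, and 0 with slide as a fixed block (1172 at an unadjusted p under 0.05). Dim probes limit these results: 15 of the 47 genes were detected on no control array, so their fitted changes rest on signal near background.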
